A study of Mus musculus with 6 samples.

Results

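The genes described here make cholesterol and fatty acids or regulate their synthesis: 29 named genes, looked up by symbol in the deposited expression table of 24421 genes, of which all 29 were found. They comprise 19 genes of sterol synthesis and transport, 6 of fatty acid synthesis and 4 that regulate both. RNA was sequenced from E14 mouse embryonic stem cells, a feeder-independent line of the early embryo, after 15 h in 10 µM paraquat, a compound that cycles electrons to oxygen and forms superoxide. One group was wild type (2 libraries) and the other Pml-/- (2 libraries), which lacks the intact gene of the scaffold protein of PML nuclear bodies. Both groups were kept in serum with leukemia inhibitory factor plus inhibitors of GSK3 (CHIR99021) and MEK (PD0325901), and both received paraquat, so the comparison is between genotypes under treatment and holds no untreated cells. Neither the number of knockout clones nor the origin of replicate libraries (separate cultures or not) is given in the labels. The p-values therefore reflect spread among these libraries, pooled in part over genes and possibly technical. The other 2 of the 6 samples, chromatin labelled by a peroxidase on PML, were not analysed here.

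Cholesterol is built from acetyl-CoA. The mevalonate steps make activated isoprene units and join them to farnesyl diphosphate; the sterol branch makes squalene, closes it into lanosterol and trims lanosterol to cholesterol. Fatty acid synthesis uses the same acetyl-CoA, elongates it to palmitate, and then lengthens and desaturates the chain. Both routes are transcribed under the sterol regulatory element-binding proteins (SREBPs), which the escort protein SCAP carries from the endoplasmic reticulum to the Golgi for activation; when sterols are plentiful, INSIG proteins hold SCAP back. Dividing stem cells use both routes to make membrane.

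The values are CPM (reads per 1000000 reads counted in genes). Library depth was 31384794 to 44130093 reads, and the least covered value of any of the 29 genes was 370 reads, for Tm7sf2. Each log2 fold change below is knockout minus wild type on the log2(CPM + 1) scale, from limma fitted to the 12710 genes averaging 1 CPM or more, which all 29 genes passed, and a gene is called where its adjusted p (Benjamini-Hochberg over all genes tested) is under 0.05. Pml itself was at 238 and 228 CPM in wild type and at 78.7 and 89.7 CPM in the knockout (limma log2 fold change -1.46, adjusted p = 4.43e-10). Defining markers of embryonic stem cells summed to 6939 to 7149 CPM over the 4 libraries, and each of these 9 genes was above 200 CPM in every library; Tfcp2l1 and Tdgf1 were called higher and Zfp42 lower in the knockout. Those of fibroblasts (6 genes, Dcn at 0 throughout) summed to 5.77 to 7.58 CPM, and those of primitive endoderm (7 genes, mostly Lama1) to 98.2 to 115 CPM. Those of epiblast-like primed cells (5 genes, mostly Dnmt3b) summed to 193 to 207 CPM, with Pou3f1 called lower in the knockout (limma log2 fold change -0.50, adjusted p = 0.0328). Markers of the 2-cell-like state, a rare state of these cultures, summed to 11.4 and 13.2 CPM in the wild-type pair and 23.4 and 23.6 CPM in the knockout pair. Of these 6 genes, 4 were tested and 3 (Zscan4a, Zscan4c and Zscan4d) were called higher, against 1.95% of all genes tested. The part of these markers in the results below was not tested. In bulk RNA, fewer cells of a type and less RNA per cell cannot be told apart. The kit entry of wild-type library 2 names a DNA library kit where the other 3 name an RNA kit. For the 29 genes, values without this library are given where a call changed or a called value moved by over 1.5 times. Genes outside the 29 that were called only without it are not named.

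The promoter sequences below are shown because the SREBPs and their partners act at promoters: Hmgcs1 held the only sterol element letters found, Mvk the most CCAAT boxes, and Insig1 and Dhcr7 are called genes. Scap, also called, held 0 CCAAT boxes and 1 E-box (CACGTG) in each of its 2 entries and is not shown. Of the 3 starts of Dhcr7, the one shown is the only one with CCAAT boxes. They are the 250 bases before the annotated start from RefSeq (GRCm38.p6, the same build as mm10), all on the plus strand. Capitals mark the letters TCACNCCAC (core of the sterol regulatory element), CCAAT (the box bound by NF-Y, a partner of SREBPs) and CACGTG (an E-box), each on either strand.
Insig1, chr5:28071162-28071411: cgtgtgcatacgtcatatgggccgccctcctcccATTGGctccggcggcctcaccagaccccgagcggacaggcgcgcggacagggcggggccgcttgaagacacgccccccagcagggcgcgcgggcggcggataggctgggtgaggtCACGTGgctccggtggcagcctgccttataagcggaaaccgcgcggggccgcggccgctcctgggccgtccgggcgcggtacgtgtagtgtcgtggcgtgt
Hmgcs1, chr13:119690101-119690350: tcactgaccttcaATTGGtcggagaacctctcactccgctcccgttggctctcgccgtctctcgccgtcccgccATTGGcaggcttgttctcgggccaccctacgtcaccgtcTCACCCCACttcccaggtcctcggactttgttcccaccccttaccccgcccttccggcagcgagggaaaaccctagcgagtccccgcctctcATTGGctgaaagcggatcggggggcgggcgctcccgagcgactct
Mvk, chr5:114444019-114444268: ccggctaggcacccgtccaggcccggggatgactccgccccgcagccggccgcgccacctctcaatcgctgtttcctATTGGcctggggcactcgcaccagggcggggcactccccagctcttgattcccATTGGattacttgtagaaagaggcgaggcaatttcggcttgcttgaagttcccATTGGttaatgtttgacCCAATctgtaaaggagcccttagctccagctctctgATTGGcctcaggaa
Dhcr7, chr7:143829964-143830213, the start farthest downstream of 3 in the table: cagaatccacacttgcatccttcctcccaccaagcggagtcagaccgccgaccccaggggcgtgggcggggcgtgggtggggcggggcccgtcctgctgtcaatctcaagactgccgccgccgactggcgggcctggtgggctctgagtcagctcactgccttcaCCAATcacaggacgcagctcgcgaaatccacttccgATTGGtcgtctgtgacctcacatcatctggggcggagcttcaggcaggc

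Of the 29 genes, 23 had a promoter entry (29 entries of 300 bases, from 250 before to 50 after the start). Those without an entry were Sqle, Fdps, Fdft1, Stard4, Scd1 and Scd2. The shares below therefore leave out Sqle, Scd1 and Scd2, which were called higher in the knockout. The sterol element letters were found in 1 of these 23 genes, Hmgcs1, whose match starts 137 bases before the start, against 1.46% of the 9671 tested genes with an entry and 1.24% of all 32851 promoters. CCAAT was found in 19 of 23 (82.6%), against 43.5% of tested genes and 37.4% of all promoters. Among sterol synthesis genes it was in 14 of 15, and in fatty acid synthesis genes in 2 of 4. Mvk held 5 such boxes and Hmgcs1 held 4, the last of them after the start. The GC box GGGCGG was in 19 of 23 genes (82.6%), closer to the 70.5% of tested genes (35.7% of all promoters). The E-box was in 5 of 23 (21.7%), against 12.0% of tested genes and 7.15% of all promoters, and the Insig1 match starts 101 bases before the start. Of 96 matches in these promoters, 2 overlapped another match of the same entry. The 2 entries of Scap overlap, so matches in their shared bases were counted in both. A match describes letters in a window and not binding. In the shares of genes, a gene with several entries was counted once.

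**Figure D1:**
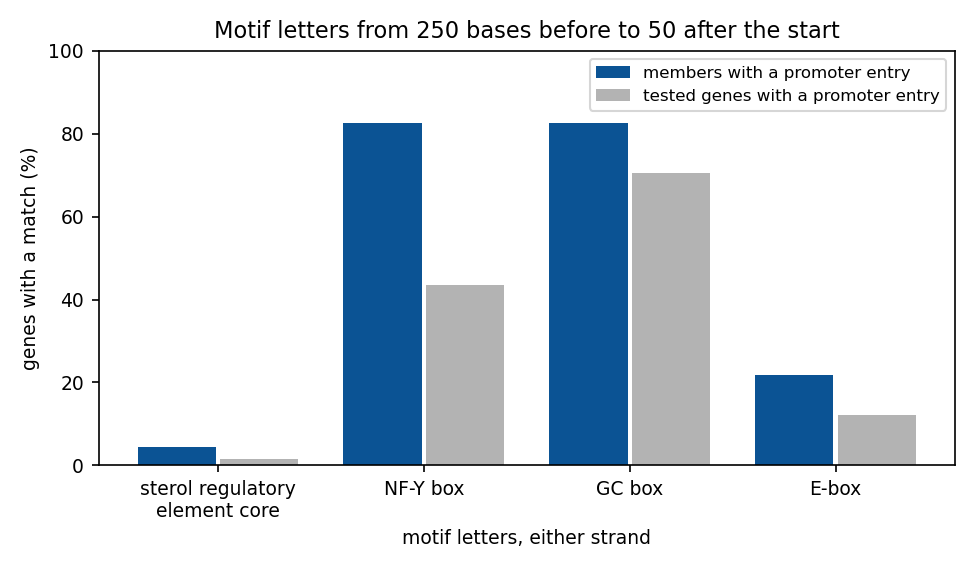
Share of genes (%) with each set of motif letters between 250 bases before and 50 after the annotated start, for the 23 members with a promoter entry and the 9671 tested genes with one. The CCAAT box stands at 82.6% against 43.5%, the widest gap of the 4 motifs.

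In the knockout, 4 of the 29 genes were called higher (Sqle, Dhcr7, Scd1 and Scd2) and 2 lower (Insig1 and Scap), all by less than 1.3-fold. These 6 calls are 20.7% of the members, against 5.41% of all genes tested and 5.87% of the 9250 with a mean of at least 10 CPM, a level that all 29 genes reached. By direction, 1.95% of all genes tested were called higher and 3.45% lower. The medians of the enzymes and of the regulators lay on opposite sides of 0: the median log2 fold change was 0.07 for the 19 sterol genes, 0.11 for the 6 fatty acid genes and -0.20 for the 4 regulators, beside -0.003 for all genes tested. The libraries of the 2 genotypes did not overlap for 11 genes that were higher in the knockout (37.9%, against 23.8% of all genes) and for 4 that were lower (13.8%, against 25.5%). The difference between genotypes was larger than the gap between libraries of either genotype for 11 of 29 genes, a share of 37.9% that is near the 36.8% of all genes tested. At an unadjusted limma p under 0.05, 7 members were higher, against 8.54% of all genes tested, and 4 were lower, against 10.8%. EdgeR on whole reads called 5 of the 6 (all but Dhcr7), against 4.19% of the genes it tested. In the authors' deposited table the same 6 genes had a false discovery rate under 0.05, against 3.8% of its genes. That share is over all 24421 genes, including those below the 1 CPM filter. Among the 12710 genes tested here, the same rate gave 303 genes higher and 521 lower in the knockout. The members were chosen with earlier results of these data known, so these shares describe the members.

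**Figure D2:**
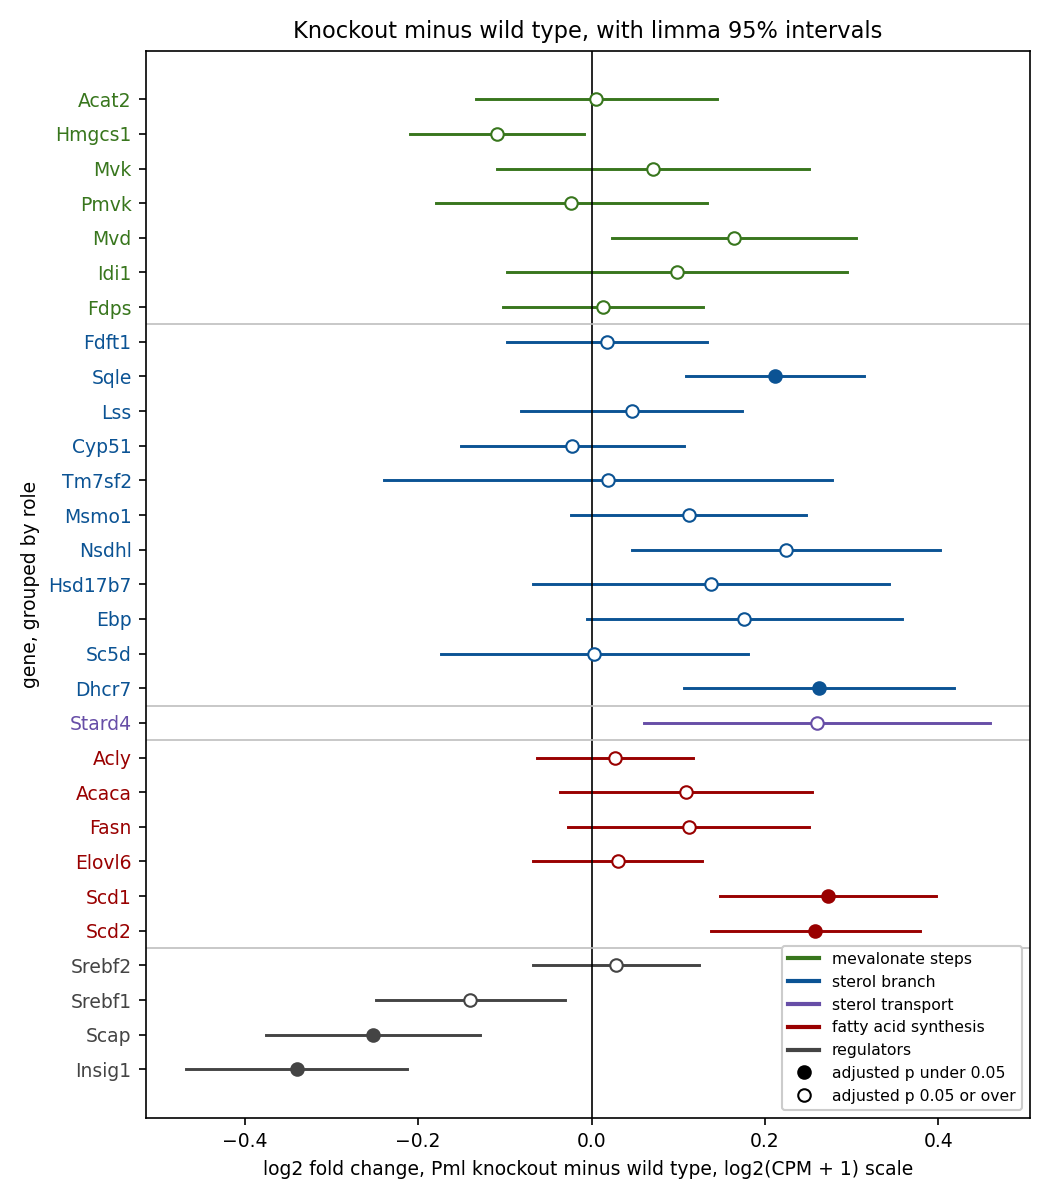
Log2 fold change of each gene (knockout minus wild type, horizontal axis, log2(CPM + 1) scale) with the limma 95% interval; genes run in pathway order by role, and filled points have an adjusted p under 0.05. Sqle, Dhcr7, Scd1 and Scd2 lie to the right and Scap and Insig1 to the left, and most other intervals include 0.

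**Figure D3:**
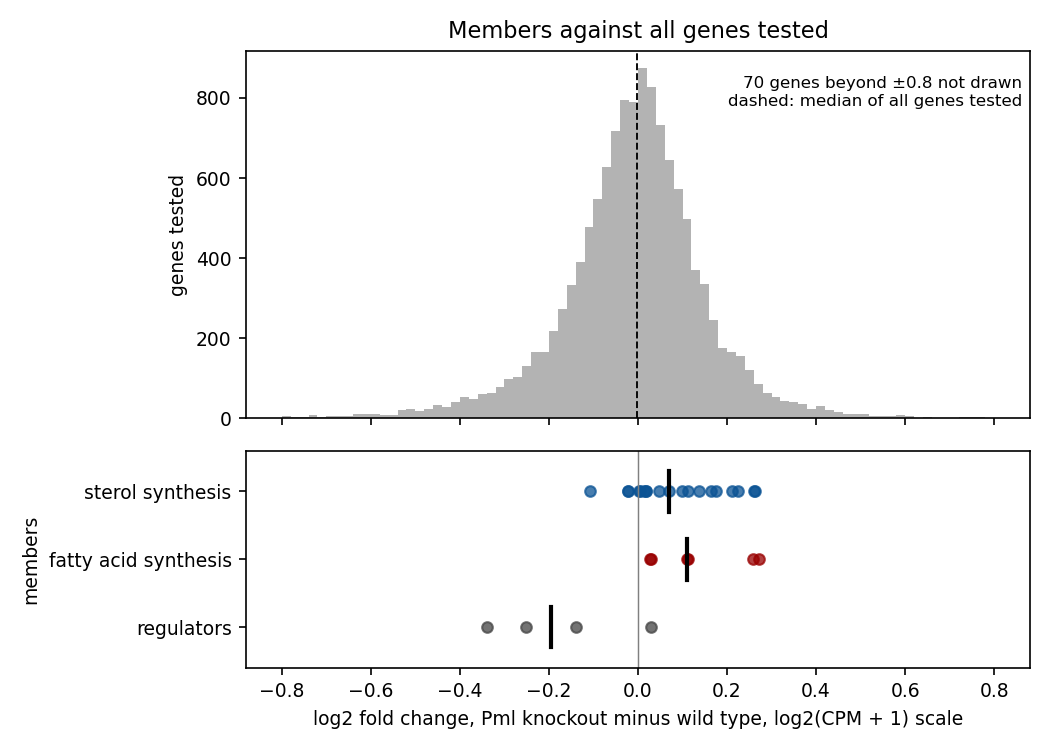
Upper panel: number of tested genes by log2 fold change (70 genes beyond ±0.8 are not drawn). Lower panel: the members in 3 groups, with a bar at each median (0.07, 0.11 and -0.20); the fatty acid genes all lie above 0 and 3 of the 4 regulators below it.

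Among the regulators, Insig1 fell. INSIG1 retains SCAP and its cargo in the endoplasmic reticulum, and its gene (chromosome 5, 28071412 to 28078662) is itself a known SREBP target. Its level was 64.5 and 63.0 CPM in the wild-type libraries and 50.7 and 49.6 CPM in the knockout libraries. Both knockout libraries lay below both wild-type libraries, and the groups were more than 12 CPM apart while libraries of a group differed by less than 2. The means were 63.7 ± 1.07 and 50.1 ± 0.81 CPM (SD, n = 2), a fall of 1.27-fold (limma log2 fold change -0.34, standard error 0.06, adjusted p = 0.0036). It was called under every alternative setting tried and without each library in turn (adjusted p between 0.000218 and 0.0257). The Insig1 span lies wholly inside that of the predicted noncoding gene Gm35223. The sources used here do not give whether counting used strand, and without it reads of the pair cannot be told apart.

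Scap also fell. It encodes the sterol-sensing escort of the SREBPs, and its gene lies on chromosome 9 (110333288 to 110384949). Its level was 70.8 and 69.6 CPM in the wild-type pair and 59.9 and 57.7 CPM in the knockout pair. The groups did not overlap, and the fall was 1.19-fold (limma log2 fold change -0.25, standard error 0.06, adjusted p = 0.0183). Leaving out wild-type library 1 (limma adjusted p = 0.0927) or knockout library 2 (adjusted p = 0.0965) ended the call and kept the direction.

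The genes of the SREBPs themselves were not called. Srebf2, whose protein mainly drives sterol genes, was at 239 and 250.3 CPM in the wild-type pair and 249.9 and 249 CPM in the knockout pair. Its 4 values overlapped, and the 95% interval of the log2 fold change ran from -0.07 to 0.12. Srebf1, whose protein mainly drives fatty acid genes, was at 115 and 113 CPM in the wild-type pair and 105 and 101 CPM in the knockout pair. Both knockout values were lower, with a log2 fold change of -0.14 that did not pass (95% interval -0.25 to -0.03, limma adjusted p = 0.135). The table counts whole genes, so the separate transcripts of Srebf1 were not told apart, and 114 bases of its span are shared with Rai1.

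Of the 7 mevalonate genes, which supply isoprene units, 0 were called with limma, against 5.41% of all genes tested. EdgeR and DESeq2 on whole reads called 0 of them as well. An unadjusted limma p under 0.05 was found for 2 of them (28.6%), against 19.3% of all genes tested. Hmgcs1, which condenses acetyl-CoA units into HMG-CoA and whose promoter held the sterol element letters above, was at 217 and 225 CPM in the wild-type pair and 199.7 and 210.2 CPM in the knockout pair. Both knockout libraries were below both wild-type libraries, and the log2 fold change of -0.11 did not pass (95% interval -0.21 to -0.01, adjusted p = 0.218). Mvd, the decarboxylase that forms isopentenyl diphosphate, went the other way, at 43.8 and 43.7 CPM in the wild-type pair and 51.1 and 47.3 CPM in the knockout pair (limma log2 fold change 0.16, adjusted p = 0.183). The Mvd span shares 3213 bases with the noncoding gene Gm51557, so part of its reads is uncertain. The thiolase gene Acat2, the kinase genes Mvk and Pmvk, the isomerase gene Idi1 and the farnesyl diphosphate synthase gene Fdps had log2 fold changes between -0.02 and 0.10. For Fdps, at 85.0 and 83.9 CPM in the wild-type pair and 87.2 and 83.3 CPM in the knockout pair, the interval of -0.10 to 0.13 bounds a difference in either direction.

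In the sterol branch, 2 of 11 genes rose (18.2%, against 1.95% of all genes tested) and 0 fell (against 3.45%). Sqle encodes squalene epoxidase, an oxygen-using and rate-limiting step (chromosome 15, 59315092 to 59331193). It was at 133 and 136 CPM in the wild-type pair and 153 and 159 CPM in the knockout pair. The knockout libraries were both higher, by 1.16-fold on the means of 134 ± 2.43 and 156 ± 4.21 CPM (limma log2 fold change 0.21, standard error 0.05, adjusted p = 0.018). The call was lost when wild-type library 1 was left out (limma adjusted p = 0.119), without knockout library 2 (adjusted p = 0.087) and with no filter on low values (adjusted p = 0.0539).

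Dhcr7 encodes the reductase of the last step to cholesterol (chromosome 7, 143823167 to 143848410). It was at 33.0 and 34.4 CPM in the wild-type pair and 38.8 and 42.6 CPM in the knockout pair, again without overlap. The rise was 1.21-fold, from 33.7 ± 0.99 to 40.7 ± 2.70 CPM (log2 fold change 0.26, standard error 0.07), and its limma adjusted p of 0.049981 lay at the edge of the threshold. It missed the threshold with edgeR on whole reads (adjusted p = 0.0527), DESeq2 (adjusted p = 0.105) and TMM scaling (adjusted p = 0.0588), and without knockout library 2 (adjusted p = 0.305) or wild-type library 1 (adjusted p = 0.211). Without Dhcr7, Sqle was the one sterol synthesis gene called.

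The other 9 genes of the branch were not called, with log2 fold changes between -0.02 and 0.22. Nsdhl and Ebp, a decarboxylating dehydrogenase and an isomerase that act on sterol intermediates and are both X-linked, gave the largest of these. Of the 433 X-linked genes tested, 56.8% had a positive log2 fold change, against 49.0% of all genes tested, and their median was 0.02. Of the 653 tested genes of chromosome 8, where Mvd and Msmo1 lie, 29.9% were positive, with a median of -0.06. The part of chromosome in the values of these members was not tested. Nsdhl was at 23.2 and 23.3 CPM in the wild-type pair and 25.9 and 28.9 CPM in the knockout pair (limma log2 fold change 0.22, adjusted p = 0.143). Ebp was at 25.3 and 25.5 CPM in the wild-type pair and 26.8 and 31.0 CPM in the knockout pair (limma log2 fold change 0.18, adjusted p = 0.274). In both genes the wild-type libraries nearly coincided, and knockout library 2 was the highest. Knockout library 2 was also the highest for Msmo1, the C4 methyl oxidase gene, at 71.3 CPM, where the other 3 libraries were at 62.0 to 63.9 CPM. Hsd17b7, the ketosteroid reductase gene, had a log2 fold change of 0.14 (limma adjusted p = 0.48), and knockout library 1, at 19.3 CPM, lay between the wild-type values of 18.3 and 19.6 CPM. Squalene synthase Fdft1, lanosterol synthase Lss, the demethylase Cyp51, the reductase Tm7sf2 and the desaturase Sc5d were between -0.02 and 0.05. The widest interval was that of Tm7sf2 (-0.24 to 0.28), the gene with the lowest level, at 9.49 to 11.8 CPM. Fdft1 shares 774 bases of its span with Ctsb (127 CPM on average), so part of its reads is uncertain.

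Stard4, which encodes a soluble carrier that moves cholesterol between membranes, was at 25.7 and 32.2 CPM in the wild-type pair and 35.6 and 33.6 CPM in the knockout pair. Wild-type library 1 was the lowest of the 4 by more than 6 CPM, while library 2 lay close to the knockout. The log2 fold change was 0.26 (95% interval 0.06 to 0.46, limma adjusted p = 0.13). It was 0.42 without wild-type library 2 (limma adjusted p = 0.00239) and 0.10 without library 1 (limma adjusted p = 0.75).

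Of the 6 fatty acid synthesis genes, the 2 stearoyl-CoA desaturase genes rose (33.3%, against 1.95% of all genes tested) and 0 fell (against 3.45%). These enzymes place the double bond that turns stearate into oleate. Scd1 (chromosome 19, 44394450 to 44407709) was at 132 and 149.6 CPM in the wild-type pair and 166 and 174 CPM in the knockout pair. The groups did not overlap, and the rise was 1.21-fold (limma log2 fold change 0.27, standard error 0.06, adjusted p = 0.0119). Scd2, its neighbour on the same chromosome (44293676 to 44306864), was at 712 and 814 CPM in the wild-type pair and 880.1 and 942 CPM in the knockout pair. This was a rise of 1.19-fold, from 763 ± 71.9 to 911 ± 43.5 CPM (limma log2 fold change 0.26, standard error 0.06, adjusted p = 0.0139). In both genes wild-type library 1 was the lowest value and knockout library 2 the highest.

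Without wild-type library 1 the log2 fold changes fell to 0.18 for Scd1 (limma adjusted p = 0.153) and 0.16 for Scd2 (adjusted p = 0.182). Without knockout library 2 the adjusted p was 0.0754 for both. The Scd2 call also ended with DESeq2 on whole reads (adjusted p = 0.313), and both calls ended with no filter on low values (limma adjusted p = 0.0667 for Scd1 and 0.104 for Scd2). Without wild-type library 2 they were larger, at 0.36 and 0.35. The Scd genes are close copies in a cluster, and the sources used here do not give how reads matching several copies were counted, which makes the split between them uncertain. A further copy, Scd3, was at 1.43 and 1.70 CPM in the wild-type pair and 2.15 and 2.61 CPM in the knockout pair (limma adjusted p = 0.203), and Scd4 was below the filter.

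The enzymes that make palmitate were not called. Fasn, the fatty acid synthase gene, was at 678 and 822 CPM in the wild-type pair and 817 and 796 CPM in the knockout pair. Wild-type library 1 alone was low, and the other 3 libraries spanned 796 to 822 CPM. The log2 fold change was 0.11 (95% interval -0.03 to 0.25), and it was -0.03 without wild-type library 1 and 0.25 without library 2 (limma adjusted p = 0.00367). Acly, which makes cytosolic acetyl-CoA from citrate, was at 608 and 633 CPM in the wild-type pair and 627 and 637 CPM in the knockout pair, with an interval of -0.06 to 0.12. Acaca, the acetyl-CoA carboxylase gene, had a log2 fold change of 0.11 (limma adjusted p = 0.423), with knockout library 1 at 69.1 CPM above the other 3 at 58.4 to 61.5 CPM. Elovl6, which elongates palmitate, had 0.03, at 267 to 283 CPM over the 4 libraries.

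**Figure D4:**
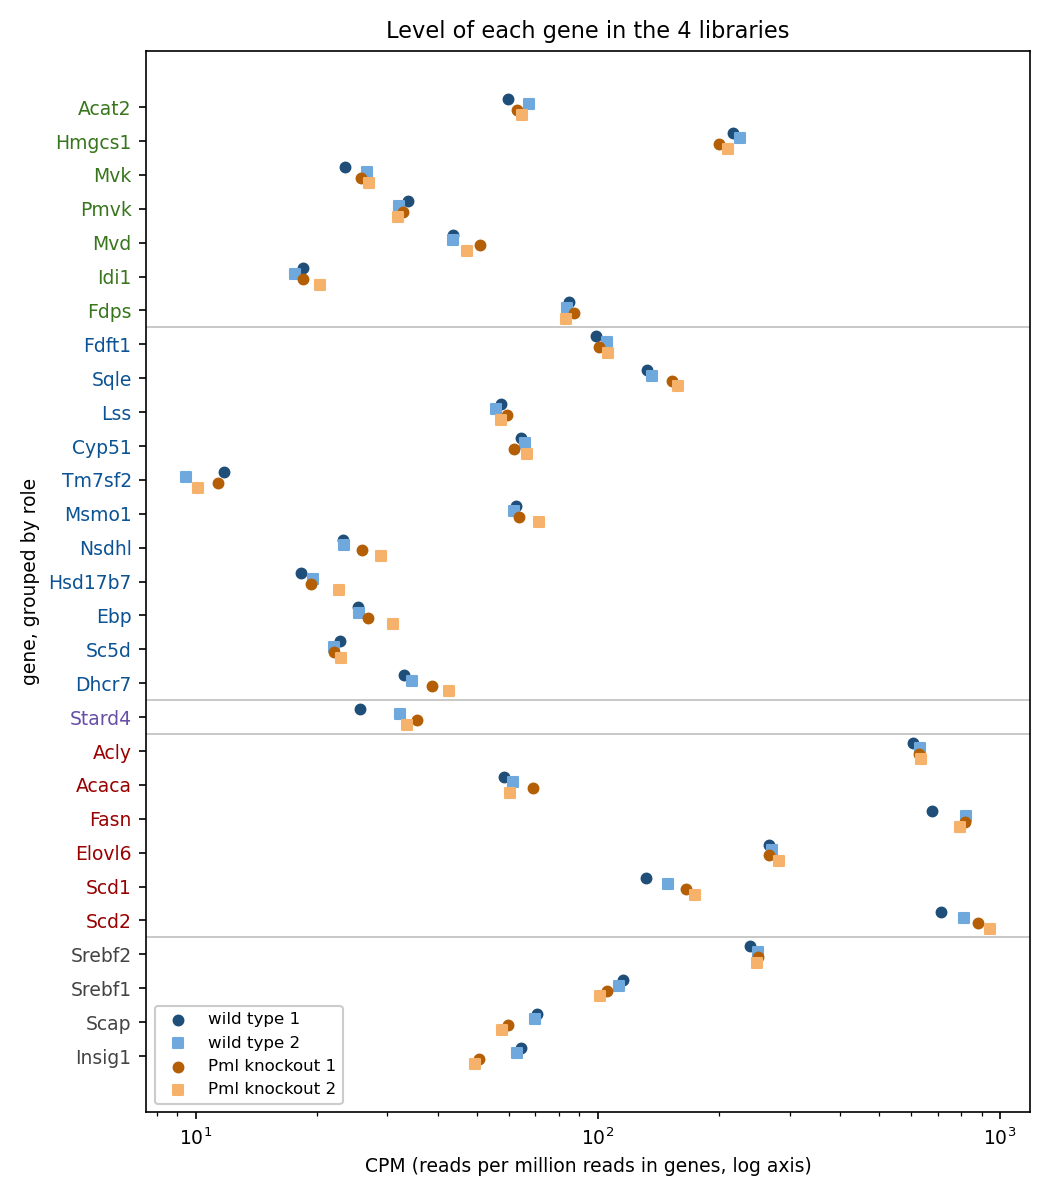
Level of each gene in the 4 libraries (CPM, log axis), in pathway order by role; circles and squares are libraries 1 and 2 of each genotype. Insig1 and Scap show 2 separate pairs, and wild-type library 1 stands below the other 3 for Fasn and Stard4. Levels of different genes also differ with transcript length and are not ranked.

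**Figure D5:**
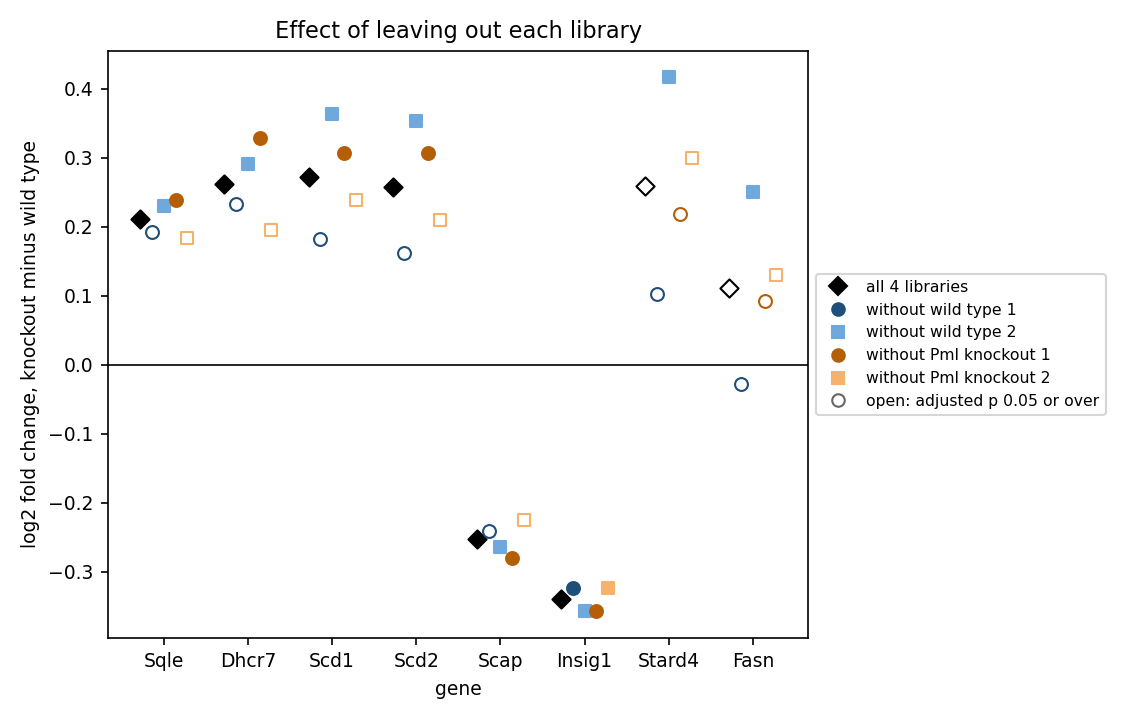
Log2 fold change of the 6 called genes and of Stard4 and Fasn with all 4 libraries and without each in turn; filled points have an adjusted p under 0.05. Insig1 stays filled throughout, and the other 5 called genes open without wild-type library 1 or knockout library 2.

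Summed over genes, the 6 fatty acid genes held 2454 and 2752 CPM in the wild-type pair and 2827 and 2892 CPM in the knockout pair, with wild-type library 1 apart from the rest. The 11 sterol branch genes held 551 and 560 CPM in the wild-type pair and 583 and 619 CPM in the knockout pair. The 7 mevalonate genes held 481 and 497 CPM in the wild-type pair and 478 and 485 CPM in the knockout pair, which overlap. These sums are dominated by the genes with most reads, Scd2, Fasn and Acly in the first and Hmgcs1 in the last.

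Of 28 other genes of sterol handling that were tested and are reported here, from a list of 29, 3 rose and 0 fell (10.7%, against 5.41% of all genes tested), with a median log2 fold change of 0.02. The genes that rose were Soat1, Tmem97 and Lima1. Soat1, the enzyme that esterifies cholesterol for storage, rose from 20.3 and 19.7 to 25.0 and 25.6 CPM (1.27-fold, log2 fold change 0.33, limma adjusted p = 0.0307). Tmem97, a membrane protein of cholesterol transport, rose from 54.3 and 54.7 to 65.6 and 63.2 CPM (1.18-fold, limma adjusted p = 0.0284). The calls of Soat1 and Tmem97 ended without each of the 4 libraries in turn (highest adjusted p = 0.156 and 0.114). Lima1, an actin-binding protein with a part in sterol uptake, was at 177 and 231 CPM in the wild-type pair and 266 and 260.2 CPM in the knockout pair (limma log2 fold change 0.38, adjusted p = 0.0141). Wild-type library 1 was again the lowest, and without it the log2 fold change was 0.19 (limma adjusted p = 0.107). Without wild-type library 2 it was 0.57, and without knockout library 2 it was 0.39, where the call also ended. With DESeq2 the call ended for Lima1 (adjusted p = 0.462) and Soat1 (adjusted p = 0.0618), and with no filter on low values it ended for Lima1, Soat1 and Tmem97 (limma adjusted p between 0.0597 and 0.1045).

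Of 36 other genes of fatty acid synthesis that were tested, from a list of 39, 0 rose and 2 fell, with a median of 0.02. This share of 5.56% is near the 5.41% of all genes tested. Acss2, which makes acetyl-CoA from acetate, fell from 33.8 and 31.8 to 25.3 and 24.3 CPM (1.32-fold; limma log2 fold change -0.39, standard error 0.08, adjusted p = 0.00779), and its call ended without knockout library 2 (adjusted p = 0.0565). Me1, the malic enzyme gene that supplies NADPH, fell from 55.3 and 55.4 to 45.7 and 47.2 CPM (1.19-fold, limma adjusted p = 0.0292). Its call ended without each of the 4 libraries in turn (highest adjusted p = 0.108), with DESeq2 (adjusted p = 0.074) and with no filter on low values (adjusted p = 0.0598). For both Acss2 and Me1, the genotypes did not overlap.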

How the data were processed

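RNA was measured in 4 libraries, 2 wild type and 2 Pml knockout, grouped by their titles. The authors used cutadapt, TopHat and edgeR with the mm10 build, per the submitters' processing notes. The sources used here do not give versions, annotation or strand. Per the file headers, the deposited table holds the authors' CPM per library and edgeR's log2 fold change, average level (log2 CPM), false discovery rate and p-value. The CPM values are whole multiples of 1 read: 100% came out whole within 0.001 reads, giving 31384794 to 44130093 reads per library.

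Main test: limma 3.58.1 (R 4.3.3), trend, on log2(CPM + 1), genotype as the only term, over 12710 genes averaging 1 CPM or more, Benjamini-Hochberg, threshold 0.05. All p-values and standard errors come from this fit unless another is named. Each variance in it combines the libraries of the gene with a trend over all genes tested. A gene whose libraries lie far apart can therefore have a smaller p-value than its own spread would give. As an alternative, edgeR 4.0.16 (quasi-likelihood, TMM) on the recovered reads called 620 of 14782 genes, 596 of them shared with limma; DESeq2 1.42.0, other pseudocounts, filters and scalings, a replicate block and leaving out each library were also run. The script was tested on simulated data. Named genes are every member, Pml and the called genes of 2 wider lists, 1 of whose genes is not reported here; members and lists were chosen with earlier results of these data known. Gene positions and promoters come from RefSeq (GRCm38.p6); all 29 symbols matched. The number of libraries, 2 per group, limits precision, and the part of read depth in this was not tested.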

Additional observations from a re-analysis of the deposited data

How the results depend on the processing

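Over 13 alternative settings, the 29 members and 5 wider genes gave 442 log2 fold changes, of which 381 kept direction and side of the threshold, 42 lost the call, 3 gained one and 16 changed sign. The sign changes were all in genes not called, each on leaving out 1 library; over these fits the log2 fold change ran from -0.079 to 0.090 for Acat2, -0.0028 to 0.056 for Acly, -0.076 to 0.032 for Cyp51, -0.011 to 0.071 for Elovl6, -0.027 to 0.25 for Fasn, -0.026 to 0.061 for Fdft1, -0.019 to 0.046 for Fdps, -0.014 to 0.16 for Mvk, -0.061 to 0.014 for Pmvk, -0.025 to 0.032 for Sc5d, -0.0054 to 0.062 for Srebf2 and -0.12 to 0.16 for Tm7sf2. In these fits 1 group holds 1 library, which is assumed to vary like the other genotype. Limma also draws the variance of each gene toward a trend over all genes. The adjusted p-values and counts of calls of these fits therefore do not measure the spread of 1 gene. They can differ in stringency with the library left out.

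On leaving out 1 library, the calls ranged from 367 (without knockout library 2) to 869 (without wild-type library 2) over all genes, and were 439 without wild-type library 1, against 687. They ranged from 0 to 3 in the sterol synthesis genes, 0 to 3 in the fatty acid genes, 1 to 2 in the regulators, 0 to 1 in the wider sterol list and 0 to 4 in the wider fatty acid list. With no filter on low values (every gene with a read) 298 genes were called, among them 0 sterol synthesis genes, 0 fatty acid genes, 2 regulators, 0 genes of the wider sterol list and 1 of the wider fatty acid list; more genes are then tested. The sterol synthesis count of 2 was 1 with edgeR, with DESeq2, with a minimum of 5 CPM, and with TMM or median-of-ratios scaling. With DESeq2 the fatty acid genes gave 1 call (Scd1, without Scd2), the wider fatty acid list 1 and the wider sterol list 1; the cause was not tested. Scaling moved the median of all genes by less than 0.01.

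Library numbers are shared by the genotypes, and same-numbered libraries deviated together only weakly (correlation 0.12 across tested genes, from 2 pairs), so the numbers were not taken as pairs. With the replicate number as a block, 1198 genes were called, the sterol synthesis count was 3 (with Stard4, adjusted p = 0.0367), the wider fatty acid count 4, and the fatty acid and regulator counts 2 each.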
